A study of Mus musculus with 58 samples.

Results

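The immediate-early genes Fos, Fosb, Jun, Junb, Egr1, Ier2, Ier3, Maff, Myc and Ccn1 were followed in quadriceps muscle of mouse models of myotonic dystrophy. They were chosen by symbol: every probe set annotated to 1 of these 10 symbols was taken, which gave 14 probe sets among 45037 on the arrays, and 10 genes of 18193 that had a probe set with a single symbol. Jun had 2 probe sets, Ccn1 had 4 and each other gene had 1. The probe set with the highest mean level over the experiments stands for a gene (1423100_at for Fos, 1417409_at for Jun, 1416039_x_at for Ccn1), and the others are given where they differ.

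RNA came from 34 male mice, hybridised to 58 Affymetrix expression arrays. The first experiment compared line 20b (6 mice) and line 41 (6 mice) with FVB wild type (6 mice) at 6 months of age. In the second, Clcn1-null mice stood beside BALB wild type (3 each), and in the third, Mbnl1-null mice stood beside FVB wild type (5 each), at 3 months of age in both. The labels name no treatment. Line 20b and line 41 are CUGexp transgenic lines, which express an expanded CUG repeat RNA; in CUGexp mice of this kind the repeat sits in a human skeletal actin transgene, so the repeat RNA is made in muscle fibres and not in other cells. The labels give no promoter. Clcn1 encodes the muscle chloride channel, and its loss gives myotonia without repeat RNA. Mbnl1 encodes a splicing regulator that binds CUG repeat RNA. Mice of 1 group are separate animals by their titles. Each mutant was set against the wild type of its own experiment, because strain, age, array type and scale differ between experiments, and both CUGexp lines share the same 6 wild-type mice.

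Immediate-early genes are switched on within minutes of a stimulus, from proteins already present in the cell. Kinase cascades and calcium signals act on the serum response factor and on CREB at their promoters, and the transcripts and most of their products are short-lived. In skeletal muscle they respond to contraction, stretch, injury and stress. Fos and Jun family proteins pair through leucine zippers to form the AP-1 factor.

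The promoters of the members in which a difference was called are shown first, with that of Maff. Among the members for which a window was found, only Maff held a complete cyclic AMP response element, in 1 of its 3 windows. RefSeq windows of 300 bases, 250 before and 50 after a start site, were found for 7 of the 10 genes (Fos, Fosb, Jun, Junb, Ier3, Maff and Ccn1), on build GRCm38.p6. They are Fos at chr12:85473640-85473939 on the plus strand, Jun at chr4:95052173-95052472 on the minus strand, Ccn1 at chr3:145649936-145650235 on the minus strand, and 1 of 3 windows of Maff at chr15:79347270-79347569 on the plus strand. Each is written in the direction of its gene, and capitals mark the motif matches described after them.
Fos: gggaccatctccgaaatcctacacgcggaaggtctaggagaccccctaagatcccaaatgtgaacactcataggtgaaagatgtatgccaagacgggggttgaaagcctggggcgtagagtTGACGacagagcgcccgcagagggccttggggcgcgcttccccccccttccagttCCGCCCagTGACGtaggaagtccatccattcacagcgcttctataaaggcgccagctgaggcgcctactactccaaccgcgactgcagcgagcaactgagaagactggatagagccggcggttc
Jun: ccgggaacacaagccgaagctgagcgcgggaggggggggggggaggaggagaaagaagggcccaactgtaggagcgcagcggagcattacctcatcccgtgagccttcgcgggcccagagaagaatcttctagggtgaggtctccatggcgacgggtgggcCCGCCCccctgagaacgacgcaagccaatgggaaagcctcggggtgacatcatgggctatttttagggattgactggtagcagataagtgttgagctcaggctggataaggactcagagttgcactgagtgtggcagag
Ccn1: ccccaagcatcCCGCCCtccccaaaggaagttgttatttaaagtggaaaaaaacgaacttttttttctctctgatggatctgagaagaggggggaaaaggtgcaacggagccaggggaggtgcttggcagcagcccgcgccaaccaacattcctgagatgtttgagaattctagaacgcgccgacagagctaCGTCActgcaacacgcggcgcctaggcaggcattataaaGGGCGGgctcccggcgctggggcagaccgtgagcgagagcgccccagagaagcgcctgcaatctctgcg
Maff: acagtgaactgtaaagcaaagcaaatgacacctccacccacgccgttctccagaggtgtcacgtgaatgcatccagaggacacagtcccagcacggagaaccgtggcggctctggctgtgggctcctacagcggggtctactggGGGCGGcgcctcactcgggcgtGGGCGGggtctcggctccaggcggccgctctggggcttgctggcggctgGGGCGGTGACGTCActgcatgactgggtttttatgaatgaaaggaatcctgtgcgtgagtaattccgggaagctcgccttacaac

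The short element TGACG, the letters shared by sites of the CREB and ATF family, was searched on both strands and lay in the windows of 5 of the 7 genes (Fos, Fosb, Junb, Maff and Ccn1), against 20.8% of 32851 promoter windows of the same length. Fos has it 2 times, at -129 and -66 from the start site. The full element TGACGTCA, which holds the short element on both strands, was found in Maff at -29 and in 1.79% of all windows. The GC box GGGCGG, a site type of Sp1, lay in 6 of the 7 genes and in 35.7% of all windows. In these counts a gene was scored over all its windows (Maff has several), whereas the shares are per window. Jun carried no TGACG and 1 GC box, at -89. The CArG box of the serum response factor (1.63% of all windows) was not found in the windows of these 7 genes. Nor was an AP-1 site TGACTCA or TGAGTCA (5.2%). Sites upstream of the windows and near matches, such as tgacatca in the Jun window, were not counted. Egr1, Ier2 and Myc had no window. A lack of either site in a gene was therefore not shown. The motif matches describe letters in a short window and were not related to the expression values by any test.

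Levels are log2 probe set intensities, and a difference is mutant minus wild type on that scale, with the standard error (SE) of a limma fit over all probe sets. A gene was tested where its probe set reached log2 5 in at least as many mice as the smallest group holds, and called where the p adjusted by Benjamini-Hochberg was under 0.05. Among the immediate-early genes 8 were tested in experiment 1 (not Fosb and Maff), 8 in experiment 2 (not Fosb and Junb) and 6 in experiment 3 (not Fosb, Junb, Maff and Myc). Myofibre markers were bright in every group (mean log2 level 16.06 to 16.28 per mouse in experiment 1), and adipocyte, fibroblast, endothelial, leukocyte and Schwann cell transcripts were present as well. In bulk muscle, fewer cells of a type and less RNA per cell cannot be told apart. The targeted genes checked the labels only in part, since the place of the probe sets relative to the deletions is not known: Clcn1 read lower in Clcn1-null mice (-1.42, SE 0.27) and Mbnl1 lower in Mbnl1-null mice (-0.73, SE 0.06). Clcn1 also read lower in line 20b (-0.95), line 41 (-0.46) and Mbnl1-null mice (-1.11), so a low value does not mark the Clcn1-null group alone. Mbnl1 read -0.37 in Clcn1-null mice (limma, adjusted p = 0.158).

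**Figure D1:**
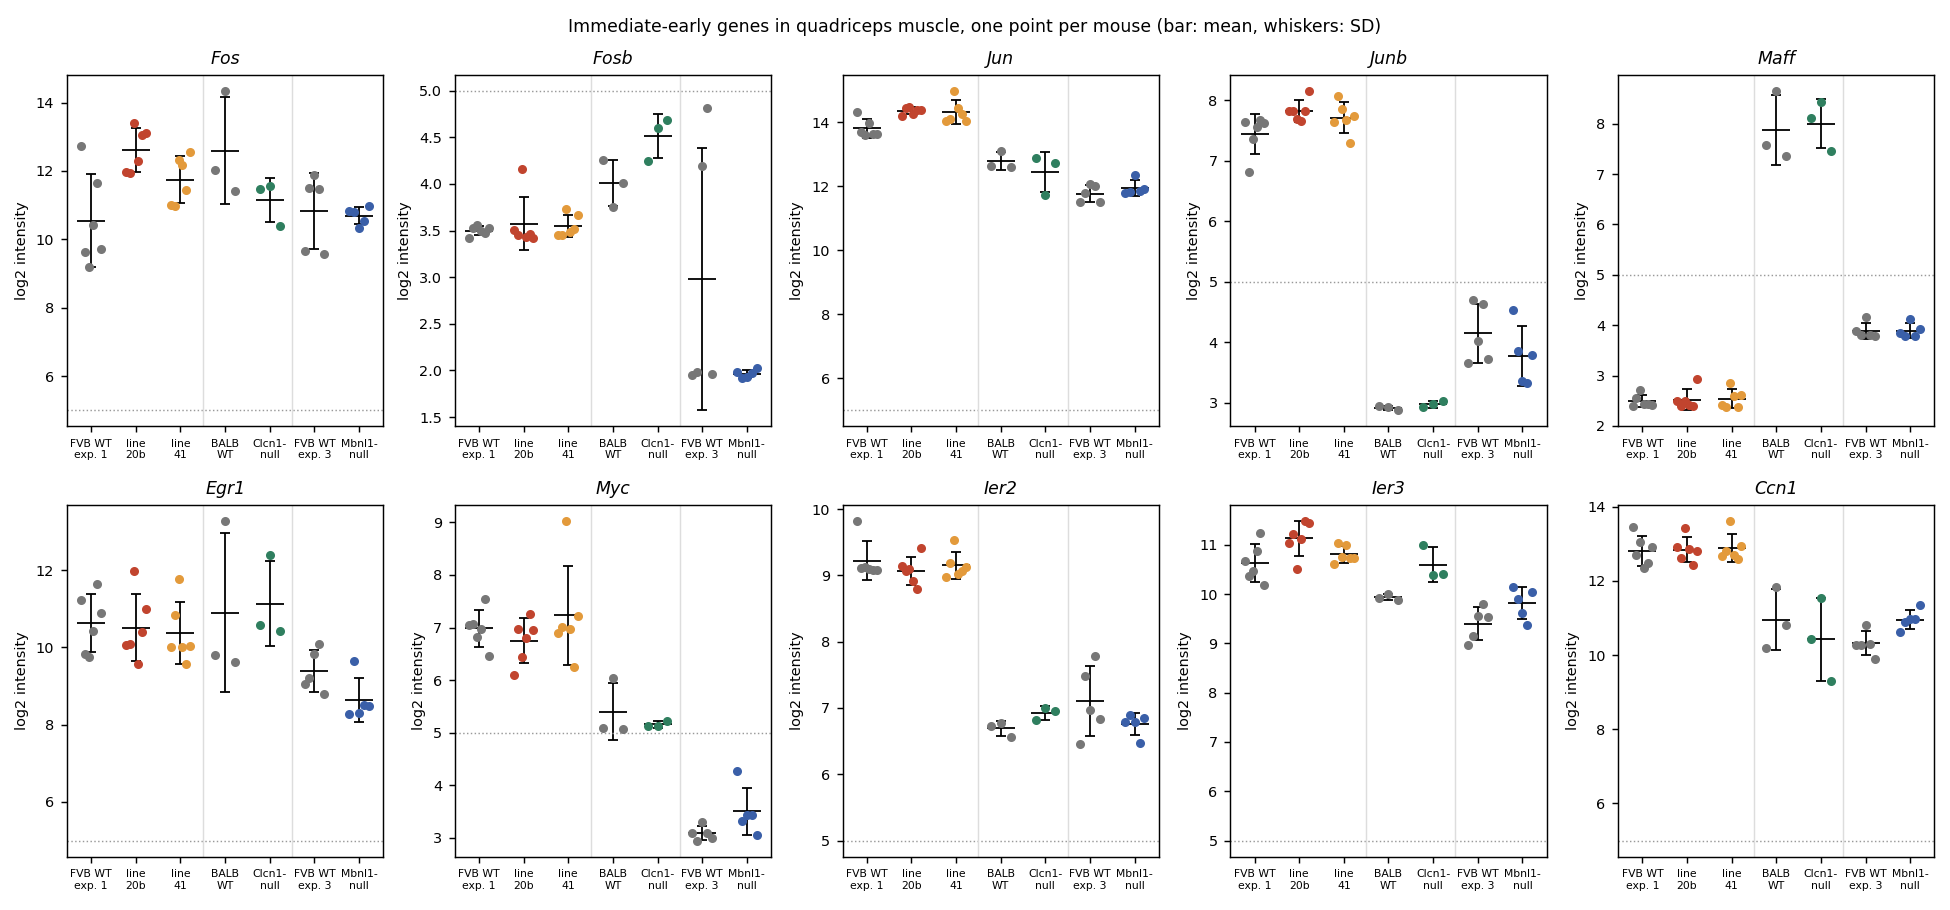
Log2 intensity of each of the 10 immediate-early genes (1 panel each, vertical axis) in every mouse of the 7 groups (horizontal axis); points are mice, bars are group means, whiskers are SDs, and the dotted line is the filter at log2 5. Fos spreads over several log2 units within wild-type groups, the line 20b mice lie close together in Jun (SD 0.11), and Fosb stays under the filter in all 34 mice.

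In line 20b, 2 of 8 tested immediate-early genes rose and 0 fell, namely Fos and Jun. Over all 12955 genes tested 8.95% were called higher and 10.5% lower in this comparison. The median difference of the 8 was 0.20 and that of all genes -0.01. Fos rose 4.2-fold and Jun 1.47-fold, while Egr1, Ier2, Myc and Ccn1, genes that the same signals induce, were not called.

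Fos, the AP-1 subunit that needs a Jun partner, read from 11.93 to 13.39 with a median of 12.66 in the 6 line 20b mice, and from 9.18 to 12.73 with a median of 10.07 in the 6 wild types. Wild-type mouse 1, at 12.73, was the only wild type inside the range of line 20b, and the other 5 lay under every line 20b mouse. The difference was 2.07 (SE 0.51, 95% interval 1.01 to 3.14, adjusted p = 0.00725). Leaving out each of the 18 mice in turn gave 1.80 to 2.51, and all kept the call.

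Jun, the DNA-binding partner of Fos, read from 14.19 to 14.48 with a median of 14.39 in line 20b and from 13.59 to 14.32 with a median of 13.66 in wild type. Wild-type mouse 1 was again the only wild type that overlapped line 20b, where the spread between mice was small (SD 0.11 against 0.29). The difference was 0.55 (SE 0.15, adjusted p = 0.0132). At the other Jun probe set, 1448694_at, line 20b was higher as well (0.43, SE 0.14, adjusted p = 0.0434).

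Junb, a Jun relative that often restrains it, and Ier3, a regulator of stress signalling and cell survival, stood near the threshold. Junb read from 7.66 to 8.16 with a median of 7.82 in line 20b and from 6.81 to 7.67 with a median of 7.59 in wild type. In 5 of 6 line 20b mice it lay above every wild type, with a difference of 0.38 (SE 0.15, adjusted p = 0.0793). Ier3 read from 10.50 to 11.49 in line 20b and from 10.18 to 11.25 in wild type, and 2 line 20b mice exceeded all wild types. Its difference was 0.50 (SE 0.17, adjusted p = 0.0531), and it was called without line 20b mouse 3 (0.62, adjusted p = 0.0104), without wild-type mouse 5 (0.62, adjusted p = 0.0118) and without wild-type mouse 4 (0.54, adjusted p = 0.0495). It was also called with a filter at log2 7, quantile normalisation, a median shift, array weights or a replicate block (adjusted p 0.026 to 0.0466). Every other fit that left out 1 mouse gave no call for Ier3 (adjusted p up to 0.122, without wild-type mouse 6). Without wild-type mice 1 and 2 together its difference was 0.44 (adjusted p = 0.166).

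The other tested members of line 20b stayed on the wild-type level or had too wide a spread to tell. Egr1, a zinc finger factor that answers to the same kinases as Fos, read from 9.57 to 11.98 with a median of 10.24, against 9.76 to 11.64 with a median of 10.67 in wild type. The groups overlapped throughout, and the 95% interval of the difference ran from -1.01 to 0.78. Myc, a growth regulator, read from 6.09 to 7.26 in line 20b and from 6.46 to 7.55 in wild type (-0.23, SE 0.33). Ier2, a small nuclear protein of the early response, differed by -0.15 (SE 0.13) and Ccn1, a secreted matrix protein, by 0.02 (SE 0.20), with its other 3 probe sets not called either.

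The wild-type mice that served line 20b also served line 41, so the differences of line 41 are not independent of those of line 20b. Here 1 of 8 immediate-early genes rose and 0 fell, where 3.91% of all tested genes were called higher and 5.5% lower. The median difference of the 8 was 0.21 and that of all genes -0.02. Jun was the gene called.

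Jun read from 14.05 to 14.996 with a median of 14.19 in line 41. All 6 line 41 mice lay above wild-type mice 2 to 6, which reached at most 13.98, and 2 lay above wild-type mouse 1 too. The difference was 0.51 (SE 0.15, adjusted p = 0.0354). This call is narrow: it was lost without wild-type mouse 2, 3, 5 or 6 or without line 41 mouse 3, 4 or 5 (adjusted p up to 0.0732, differences 0.38 to 0.52), and probe set 1448694_at gave 0.24 (SE 0.14, adjusted p = 0.339). A fit with the mouse number as a replicate block gave an adjusted p of 0.057.

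Fos read from 10.97 to 12.56 with a median of 11.81 in line 41, above 4 of the 6 wild types and below wild-type mouse 1 in every case. The difference of 1.19 (SE 0.51, 95% interval 0.13 to 2.26) was not called (adjusted p = 0.156). Without wild-type mouse 1 it was 1.63 and was called (adjusted p = 0.0264). Wild-type mice 1 and 2 had the highest mean adipocyte marker levels of their group (13.61 and 13.90, with the other 4 at most at 12.28). Without both of them the Fos difference was 1.51 (adjusted p = 0.063) in line 41 and 2.38 (adjusted p = 0.00181) in line 20b.

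Of the rest, Junb (0.27, SE 0.15), Ier3 (0.17, SE 0.17), Ccn1 (0.07, SE 0.20), Ier2 (-0.07, SE 0.13) and Egr1 (-0.26, SE 0.43) were not called in line 41 either. Myc read from 6.25 to 9.03 with a median of 6.99, the top value being line 41 mouse 3, against 6.46 to 7.55 with a median of 7.01 in wild type. The Myc difference of 0.24 (SE 0.33) was not called, and without line 41 mouse 3 it was -0.12.

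Set directly against each other, line 20b and line 41 differed in 0 of 8 immediate-early genes, where 3.71% of all tested genes were called higher and 2.45% lower in line 20b. By limma without adjustment, 0 of the 8 had a p under 0.05. Fos was 0.88 higher in line 20b (SE 0.51, 95% interval -0.19 to 1.94, adjusted p = 0.364). Jun differed by 0.04 (95% interval -0.27 to 0.35). The larger Fos difference of line 20b from wild type was therefore not shown to differ from that of line 41, and a difference of up to 1.94 is inside the interval.

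**Figure D2:**
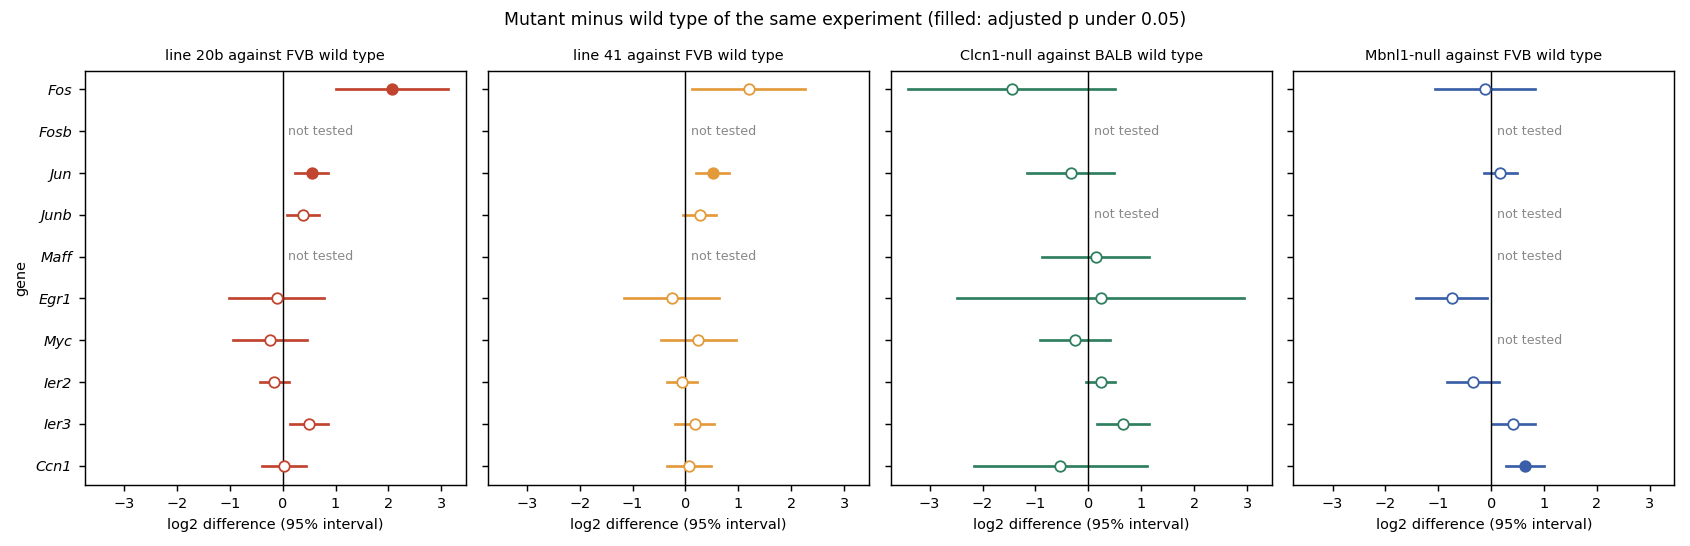
Log2 difference of each immediate-early gene (vertical axis) from the wild type of the same experiment (horizontal axis, 1 panel per mutant), with the 95% interval of the limma fit; filled points were called and open ones were not. Fos (2.07) and Jun (0.55) are filled in line 20b, Jun (0.51) in line 41 and Ccn1 (0.64) in Mbnl1-null mice, and the Clcn1-null intervals of Fos and Egr1 are the widest.

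In Clcn1-null mice 0 of 8 immediate-early genes were called, by limma at an adjusted p under 0.05, where 2.04% of 13244 genes were called higher and 3.02% lower. At an unadjusted p under 0.05, Ier3 passed alone at the probe set that stands for each gene (p = 0.0163). The median difference of the 8 was -0.05 and that of all genes 0.02. With 3 mice a group the intervals were wide, and the loss of this channel was not shown to leave the genes unaltered.

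The 3 Clcn1-null mice read 11.47, 11.56 and 10.40 in Fos, and the 3 BALB mice 12.03, 14.35 and 11.40. All 3 null mice lay below the wild-type mean, but BALB mouse 2 carried much of the gap: the difference was -1.45 (SE 0.80, adjusted p = 0.378), and without that mouse -0.57 (adjusted p = 0.615). Egr1 read 10.57, 12.39 and 10.43 against 9.79, 13.28 and 9.63, so that 1 mouse of each group stood high and the difference was 0.23 (SE 1.11). Without BALB mouse 2 it was 1.42 (adjusted p = 0.411).

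Jun read 12.87, 11.74 and 12.74 in Clcn1-null mice against 12.64, 13.11 and 12.61 in wild type, with null mouse 2 as the single low value (-0.33, SE 0.34). Without that mouse the difference was 0.02, and with array weights it was -0.92 and was called (adjusted p = 0.029). At the other Jun probe set all 3 null mice, at 13.42, 12.85 and 13.01, lay below all 3 wild types, at 13.51, 13.61 and 13.51 (-0.45, SE 0.17, adjusted p = 0.218). Myc read 5.12, 5.13 and 5.23 against 5.10, 6.03 and 5.08, just over the filter except in BALB mouse 2.

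Ier3 differed in the other direction. It read 11.0001, 10.38 and 10.41 in Clcn1-null mice and 9.93, 10.01 and 9.89 in wild type, so the groups did not overlap, and its difference was 0.66 (SE 0.20, adjusted p = 0.141). Ier2 also showed no overlap, at 6.81, 7.01 and 6.96 against 6.73, 6.78 and 6.57, with a small difference of 0.23 (SE 0.11, adjusted p = 0.32). Maff, a small Maf protein that lacks a transactivation domain, passed the filter in this experiment and not in the others, at 8.11, 8.43 and 7.47 against 7.58, 8.66 and 7.36 (0.14, SE 0.41). Ccn1 read 10.45, 11.53 and 9.29 against 10.20, 11.84 and 10.82 (-0.53, SE 0.67), and without null mouse 3 its difference was 0.03.

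In Mbnl1-null mice 1 of 6 immediate-early genes rose and 0 fell, where 8.04% of 8965 genes were called higher and 8.14% lower. The median difference of the 6 was 0.03 and that of all genes -0.01. The gene was Ccn1, which encodes a secreted matrix protein and is a target of the serum response factor and of YAP. Fos, called in line 20b, and Jun, called in both CUGexp lines, were not called here.

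Ccn1 read 10.61, 10.89, 10.96, 10.96 and 11.35 in the Mbnl1-null mice and 10.28, 10.28, 10.81, 10.29 and 9.91 in wild type. Of the 5 null mice 4 lay above every wild type, and null mouse 1 fell under wild-type mouse 3 alone. The rise was 1.56-fold (0.64, SE 0.17, adjusted p = 0.0232). Probe set 1438133_a_at of Ccn1 gave 0.76 (SE 0.21, adjusted p = 0.029), with 8.82, 9.47, 9.13, 9.56 and 9.46 against 8.55, 8.31, 9.12, 8.67 and 8.0. The other 2 Ccn1 probe sets stayed under the filter in this experiment. Without wild-type mouse 2 the adjusted p of the first probe set was 0.0537 (difference 0.63). The name of that probe set, 1416039_x_at, marks probes that can also bind related sequences.

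Fos read 10.82, 10.81, 10.33, 10.54 and 10.98 in Mbnl1-null mice and 9.65, 11.50, 11.88, 11.48 and 9.58 in wild type. The null mice lay together in the gap between the 3 high and 2 low wild types (SD 0.26 against 1.11), and the difference was -0.12 (SE 0.43, 95% interval -1.07 to 0.83). Jun read 11.78, 11.82, 12.36, 11.86 and 11.92 against 11.50, 11.80, 12.07, 12.01 and 11.50 (0.17, SE 0.14). The 95% interval of the Jun difference ran from -0.14 to 0.49.

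Egr1 read 8.27, 9.65, 8.29, 8.52 and 8.49 in Mbnl1-null mice and 9.05, 9.22, 9.82, 10.10 and 8.78 in wild type. In 4 of 5 null mice it lay below every wild type, and null mouse 2 was inside the wild-type range. The difference of -0.75 (SE 0.31) was not called (adjusted p = 0.121), and without null mouse 2 it was -0.999 and was called (adjusted p = 0.0212). Ier3 read 10.15, 9.89, 9.61, 9.36 and 10.05 against 8.97, 9.15, 9.55, 9.79 and 9.53, with 3 null mice above all wild types (0.42, SE 0.18, adjusted p = 0.151). Ier2 read 6.79, 6.90, 6.79, 6.47 and 6.85 against 6.45, 7.48, 6.97, 7.79 and 6.83 (-0.35, SE 0.22).

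The members that missed the filter were low throughout. Fosb, a Fos relative, read from 1.92 to 4.82 over all 34 mice. In experiment 3 it read 4.19 and 4.82 in wild-type mice 3 and 4, and from 1.92 to 2.03 in the other 8 mice. Those 2 mice were also among the 3 wild types with high Fos and were the highest in Egr1. In experiment 1 Maff read 2.37 to 2.94. In experiment 2 Junb read 2.88 to 3.03. In experiment 3 Maff read 3.78 to 4.16, Junb 3.32 to 4.70 and Myc 2.95 to 4.26. Values this low are near the background of the arrays and carry no order between groups.

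**Figure D3:**
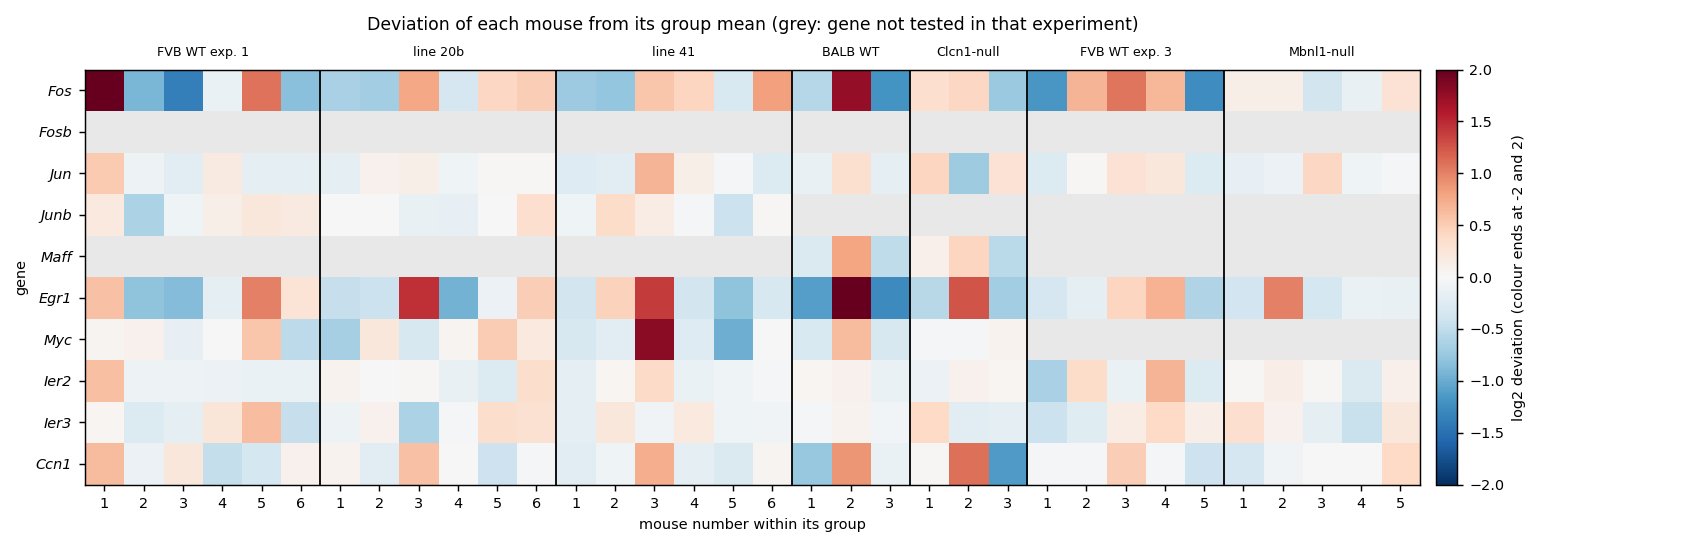
Deviation of each mouse (columns, by group and mouse number) from the mean of its group for each immediate-early gene (rows), in log2 units; red is above and blue below the group mean, colours end at -2 and 2, and grey marks genes not tested in that experiment. Wild-type mouse 1 of experiment 1, line 41 mouse 3 and BALB mouse 2 are red in most of their tested genes.

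Fos and Egr1 spread widely among mice of 1 genotype. BALB wild-type mouse 2 was the highest of its 3 mice in all 8 tested members, with Fos at 14.35 and Egr1 at 13.28, and in 34 of 46 other immediate-early genes. Its early heat shock genes were the highest of the 3 in 1 of 9. Wild-type mouse 1 of experiment 1 was the highest of 6 in 4 of 8 members (Fos, Jun, Ier2 and Ccn1), and wild-type mouse 5 in the other 4. Line 41 mouse 3 was the highest of 6 in 5 of 8 members, and in 7 of 9 early heat shock genes, and the lowest in 7 of 8 endothelial markers and 6 of 6 fibroblast markers. Of 48 other immediate-early genes this mouse was the highest in 17 and the lowest in 14. Whether RNA quality or cell content had a part in these values was not tested.

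Deviations from the group mean were set against those of Fos over the 18 mice of experiment 1, with p from 100000 permutations within groups and adjusted over 7 relations. Egr1 (r = 0.59, rho = 0.62, p = 0.0117, adjusted p = 0.0812), Jun (r = 0.56, rho = 0.44, p = 0.0232, adjusted p = 0.0812) and Ier2 (r = 0.54, rho = 0.28, p = 0.0486, adjusted p = 0.113) came first, and none passed the adjustment. Without the 2 mice farthest from the median of Fos, r was 0.54 for Egr1, 0.50 for Jun and 0.33 for Ier2. The remaining 4 genes had r from 0.31 to 0.36. Within groups Egr1 gave 0.79 in wild type, 0.82 in line 20b and 0.18 in line 41. In experiment 3 the 5 relations over 10 mice gave r from 0.40 to 0.69 with an adjusted exact permutation p of 0.223 or more. Without the 2 mice farthest from the median of Fos, r was 0.19 for Jun, 0.39 for Egr1, 0.37 for Ier2, 0.42 for Ier3 and 0.47 for Ccn1. Jun gave 0.95 within wild type and -0.74 within Mbnl1-null mice, and the other genes were positive within each group. In the 6 mice of experiment 2, r was 0.97 for Maff, 0.91 for Egr1, 0.86 for Myc, 0.74 for Ccn1, 0.49 for Ier2, 0.31 for Ier3 and 0.21 for Jun. Without the 2 mice farthest from the median of Fos these were 0.96, 0.71, 0.18, 0.92, -0.30, 0.37 and -0.33. Fos and these genes were read on the same array of a mouse and so share its quality.

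**Figure D4:**
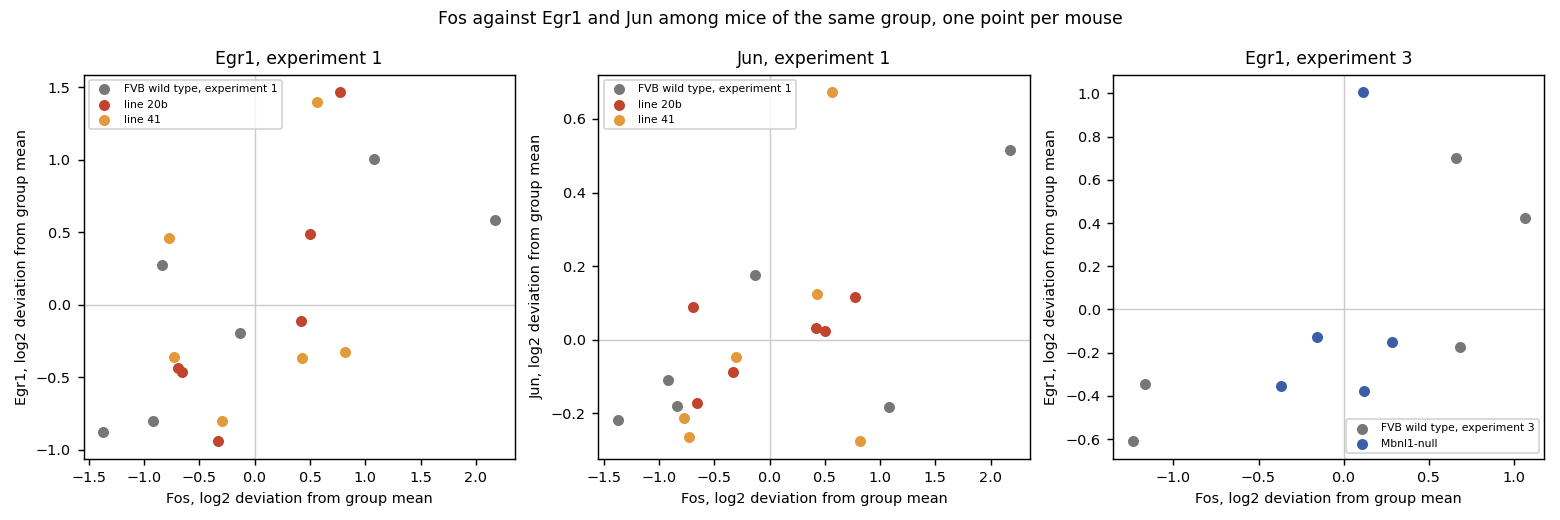
Deviation of Fos from its group mean (horizontal axis, log2) against that of Egr1 or Jun (vertical axis, log2), 1 point per mouse, coloured by group, in experiment 1 (left and middle) and experiment 3 (right). Points rise to the right in each panel with a wide scatter (r = 0.59, 0.56 and 0.59), and no relation passed adjustment.

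Among 12954 genes of experiment 1, those whose deviations were most like those of Fos were Gpr180 (r = 0.83), Rnf157 (0.78), Nsd2 (0.77), Nr4a2 (0.76), Tprkb, Trp53rkb, Fam217b, Notch2, Col14a1 and Ildr2 (0.74 to 0.75). Egr1 ranked 152, Jun 225 and Ier2 292. Nr4a2, an orphan nuclear receptor gene and itself an immediate-early gene, was also high in experiment 2 (0.92) and experiment 3 (0.75), while Gpr180 turned to -0.41 and -0.61. Within line 20b the r of Nr4a2 was 0.30, and in experiment 3 its Mbnl1-null mean lay under the filter. Col14a1 (0.88) and Notch2 (0.67) were high in experiment 2 as well, but not in experiment 3 (0.12 and 0.14). These are the top values of a large search and are given as a description.

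Other immediate-early genes, a list of 54 on the arrays, were compared next. In line 20b 5 of 48 tested rose and 0 fell (against 8.95% and 10.5% of all tested genes), with a median difference of 0.04. Gadd45b, a stress sensor (1.07, SE 0.29), Ccn2, the sister gene of Ccn1 (1.01, SE 0.28), Rgs2, which shortens G protein signalling (0.90, SE 0.22), and Dusp1, a phosphatase that ends MAP kinase signals (0.61, SE 0.20), led them, followed by the nuclear receptor gene Nr4a1 (0.51, SE 0.16). Rgs2 lay above every wild type in all 6 line 20b mice, at a mean of 10.52 ± 0.32 (SD, n = 6) against 9.62 ± 0.35 (SD, n = 6), but its other 3 probe sets were not called (0.84, 0.43 and -0.14). The other Gadd45b probe set was not called either (1.002, adjusted p = 0.103). Ccn2 rose where Ccn1 did not (0.02, SE 0.20), and a test between these genes was not made. The calls of Dusp1 and Nr4a1 were lost without 12 and 7 of 18 single mice.

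In line 41 1 of the 48 rose, the growth arrest gene Gadd45a (1.02, SE 0.29, adjusted p = 0.0333), and 0 fell, with a median of 0.08. Of all tested genes 3.91% were called higher and 5.5% lower in line 41. The Gadd45a call was lost in 8 of the 18 fits that left out a mouse (adjusted p up to 0.0703). Against line 41, line 20b was higher in Rgs2 at 1 probe set (0.91, SE 0.22), with the other 3 not called (0.65, 0.71 and 0.04). It was lower in Pim1, a survival kinase gene (-1.003, SE 0.23). In Clcn1-null mice 1 of 46 rose and 0 fell (against 2.04% and 3.02% of all tested genes), with a median of 0.05. It was Socs3, the feedback inhibitor of cytokine signals, at a mean of 12.79 ± 0.02 (SD, n = 3) against 10.60 ± 0.72 (SD, n = 3). Its call (2.19, adjusted p = 0.0301) was lost in 4 of the 6 fits that left out a mouse (adjusted p up to 0.142), and its other probe set was not called (1.83, adjusted p = 0.306). Nr4a2, named after its values were seen, with 3 of 3 null mice below all wild types, was not called (-2.58, SE 0.61, adjusted p = 0.079).

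Mbnl1-null mice had 5 of 40 other immediate-early genes higher and 1 lower (against 8.04% and 8.14% of all tested genes), with a median difference of 0.16. Atf3, a stress-induced AP-1 relative (1.77, SE 0.49), Rgs2 (1.71, SE 0.18), Gadd45b (1.39, SE 0.30) and Cebpd, a factor of the acute response (1.12, SE 0.25), led the rises, with Ccn2 (0.59, SE 0.17) after them. Rgs2 was above every wild type in all 5 null mice, and another probe set was called too (1.33, SE 0.31). The last tested Rgs2 probe set had a wild-type mean of 4.41, under the filter, and passed through the null mice alone. Nr4a2 was called lower, from a mean of 6.27 ± 1.28 (SD, n = 5) to 4.15 ± 0.43 (SD, n = 5), and all 5 null mice lay below all wild types. The null mean is under the filter, so Nr4a2 was tested through the wild-type mice alone. The lack of overlap follows from that filter and, like the call, is no support for a fall. The size of the difference is uncertain too. The Atf3 call was lost without 7 of 10 single mice and that of Ccn2 without 8.

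**Figure D5:**
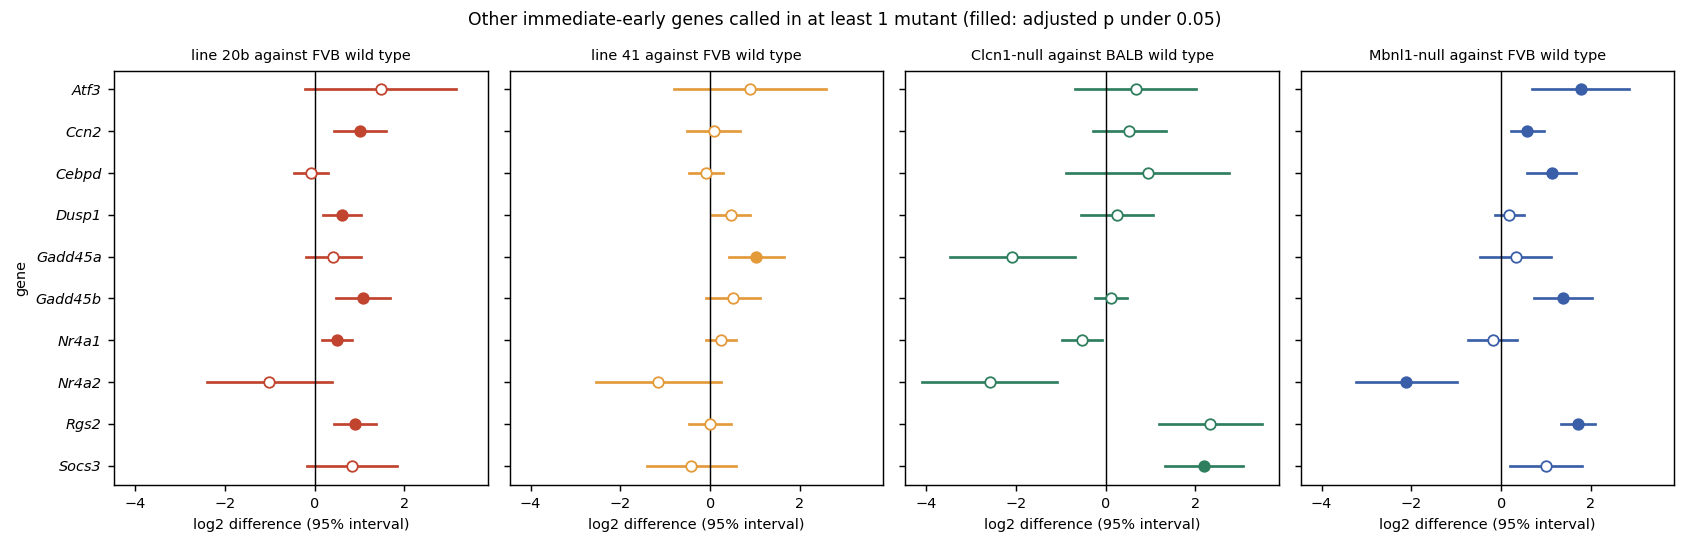
Log2 difference from the wild type of the same experiment (horizontal axis, 1 panel per mutant) with 95% intervals for the 10 other immediate-early genes called in at least 1 mutant (vertical axis); filled points were called. Gadd45b, Ccn2 and Rgs2 are filled in both line 20b and Mbnl1-null mice, and Nr4a2 lies left of 0 in every panel but is filled in Mbnl1-null mice alone. In that panel Nr4a2 passed the filter only through the wild-type mice.

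Kinases and transcription factors that act on immediate-early promoters were counted in the same way. In line 20b 5 of 22 fell and 1 rose, in line 41 3 fell and 0 rose, in Clcn1-null mice 2 of 23 fell and 0 rose, and in Mbnl1-null mice 3 of 21 fell and 1 rose. Median differences were -0.05, -0.03, -0.37 and -0.03. Of all tested genes, 8.95% were called higher and 10.5% lower in line 20b, and 3.91% and 5.5% in line 41. For Clcn1-null mice these shares were 2.04% and 3.02%, and for Mbnl1-null mice 8.04% and 8.14%. The same shares stand beside the counts of each list below. Mapk9, the gene of the Jun kinase JNK2, was lower in line 20b (-0.53, SE 0.08), line 41 (-0.45, SE 0.08) and Mbnl1-null mice (-0.55, SE 0.13), while its 2 other probe sets ran from -0.33 to 0.26 in these mutants and were called in line 20b alone, at 1 of them. Elk3, a partner of the serum response factor, was lower in line 20b (-0.57, SE 0.14) and line 41 (-0.50, SE 0.14), with its 3 other probe sets not called. Crtc2, a CREB coactivator (-0.97, SE 0.30), fell in line 20b, and Creb1 itself in line 41 at 1 of its 5 tested probe sets (-0.35, SE 0.10). The other Creb1 probe sets were not called and gave 0.42, 0.42, -0.04 and -0.18, so a fall of the gene was not shown. Mrtfa, the actin-regulated coactivator of the serum response factor (-1.10, SE 0.21), and Mapk14, the gene of p38 alpha (-0.78, SE 0.11), fell in Clcn1-null mice, but the other 2 tested probe sets of Mapk14 were not called (-0.05 and 0.24). Rps6ka3, a kinase of CREB, fell by 0.53 in Mbnl1-null mice at 1 probe set and rose by 2.21 at the other, so the gene has no single direction. In fits that left out 1 mouse, the calls of Mapk9, of Elk3 in line 20b and of the lower Rps6ka3 value were kept (the higher Rps6ka3 value was not refitted), those of Elk3 and Creb1 in line 41 were lost in 8 and 9 of 18, that of Crtc2 in 3 of 18, and those of Mrtfa and Mapk14 in Clcn1-null mice in 5 of 6 each.

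Partners and corepressors of the members changed in a few cases. In line 20b Nab2, a corepressor of Egr factors that Egr1 itself induces, rose by 1.49 (SE 0.39, adjusted p = 0.011) while Egr1 was not called. All 6 line 20b mice exceeded every wild type in Nab2, at 9.61 ± 0.29 (SD, n = 6) against 8.12 ± 0.99 (SD, n = 6). Nfe2l1, a partner of small Maf proteins, was higher in line 20b (0.50, SE 0.07), line 41 (0.49, SE 0.07) and Mbnl1-null mice (0.41, SE 0.11). Maf fell in line 20b (-0.34, SE 0.08). In all, 2 of 19 partners rose and 1 fell in line 20b, 1 rose and 0 fell in line 41, 0 of 18 were called by limma in Clcn1-null mice (6 at an unadjusted p under 0.05), and 1 of 14 rose and 2 fell in Mbnl1-null mice, among them Mafg (-0.31, SE 0.09), whose other probe set was not called (-0.006). Without 1 mouse, the call of Mafg was lost in 7 of 10 fits and that of Nfe2l1 in Mbnl1-null mice in 4 of 10.

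Downstream lists were mixed. Of 15 genes known as Myc targets 1 rose and 3 fell in line 20b, 2 rose and 2 fell in line 41, 1 rose and 0 fell in Clcn1-null mice, and 1 of 14 rose and 0 fell in Mbnl1-null mice. Fbl, the nucleolar methyltransferase fibrillarin, was higher in line 20b (0.61, SE 0.10), line 41 (0.56, SE 0.10) and Mbnl1-null mice (0.66, SE 0.10), with its second probe set called as well, while Myc was not called in either CUGexp line and was not tested in Mbnl1-null mice. Odc1, the polyamine enzyme (-0.46, SE 0.12), fell in line 20b. Of genes that share targets or regulators with Ccn1, 2 of 10 rose and 3 fell in line 20b, 0 rose and 2 fell in line 41, 1 of 9 rose and 0 fell in Clcn1-null mice, and 3 of 8 rose and 0 fell in Mbnl1-null mice.

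Those 3 genes in Mbnl1-null mice were Ankrd1, a stretch-responsive muscle protein and YAP target (3.65, SE 0.64), the Ccn1 relative Ccn3 (1.02, SE 0.23) and Ccn2. Ankrd1 was above every wild type in all 5 null mice, and its other probe set gave 3.52. The smooth muscle genes Tagln and Myl9, known targets of the serum response factor, fell in line 20b (-0.40, SE 0.09, and -0.58, SE 0.10) and line 41 (-0.39, SE 0.09, and -0.57, SE 0.10). Endothelial and mural markers fell with them, 5 of 8 in line 20b and 4 of 8 in line 41, with 0 higher. The mean level of that list was 10.75 to 11.21 per mouse in wild type, 10.04 to 10.56 in line 20b and 9.89 to 10.63 in line 41, and its part in these falls was not tested.

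Early heat shock genes belong to another rapid stress response. In line 20b 1 of 9 rose, Hspb1, a small heat shock protein of muscle (1.09, SE 0.29), and 0 fell. In line 41 0 of 9 were called by limma (2 at an unadjusted p under 0.05), in Clcn1-null mice 1 rose and 2 fell, and in Mbnl1-null mice 0 rose and 1 fell (Hsp90aa1, -0.90, SE 0.28). Hsph1 (-2.37, SE 0.26) and Dnajb1 (-1.42, SE 0.22, its other probe set not called at -0.35), which encode chaperone partners, fell in Clcn1-null mice while Hspb1 rose (1.21, SE 0.17). With 1 mouse left out these calls were lost in 2, 4 and 4 of 6 fits, and that of Hsp90aa1 in 8 of 10.

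Marker lists moved both in comparisons with a called member and in the one without. In line 20b, where Fos and Jun rose, 4 of 4 adipocyte markers fell, with mean levels of 11.05 to 11.53 per mouse against 11.72 to 13.90 in wild type, and 0 of 5 leukocyte markers were called by limma (2 at an unadjusted p under 0.05). In line 41, where Jun rose, 0 of 4 adipocyte markers (by limma, 2 at an unadjusted p under 0.05) and 1 of 5 leukocyte markers were called, the macrophage gene Cd68 (1.46, SE 0.40). In Mbnl1-null mice, where Ccn1 rose, 1 of 6 fibroblast markers (Lum, 0.47, SE 0.14) and 1 of 5 leukocyte markers (Cd68, 1.91, SE 0.40) rose, with mean fibroblast levels of 12.53 to 12.85 against 11.93 to 12.67. In Clcn1-null mice, where no member was called, 4 of 4 adipocyte markers rose, with mean levels of 13.94 to 14.21 against 11.64 to 12.23. Cd68 rose there by 3.25 (SE 0.34). The leukocyte markers Itgam and Cd14 passed the filter in no experiment. The part of these cells in the differences of the immediate-early genes was not tested.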

How the data were processed

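Quadriceps RNA of 34 mice was read on Affymetrix mouse arrays, a pair (A and B) per mouse in experiments 1 and 2 and a single array in experiment 3. Each probe set carries a linear intensity, computed and deposited by the authors with GCRMA per the submitters' processing notes, whose version and settings are not given in the sources used here. Array median intensities were 398.4 to 437.8 (array A) and 30.2 to 34.39 (array B) in experiment 1, 298.5 to 317.3 and 22.35 to 27.91 in experiment 2, and 9.559 to 11.62 in experiment 3, so levels were not compared across experiments. Precision is limited by the number of mice. The log2 of each intensity was taken. Of 45037 probe sets, 34945 had 1 gene symbol, 932 several and 9160 none. Each experiment was fitted apart with limma 3.58.1 in R 4.3.3 (lmFit, eBayes with trend, two-sided), and p-values were adjusted over all probe sets with 1 symbol that passed a filter of log2 5 (intensity 32). Genes were counted at their brightest probe set. The fit was tested on simulated data.

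The members, lists and tests were chosen with earlier results of these data known. Named genes are all probe sets of the members, up to 4 called genes of largest change per list and comparison, the 10 genes most like Fos, and Clcn1 and Mbnl1. Nr4a1 in line 20b, Cebpd in Mbnl1-null mice, Nr4a2 in Clcn1-null mice, and the alternative without wild-type mouse 1 and line 41 mouse 3 together, were added after their values were seen. Other alternatives were filters, scalings, probe set choices, spread estimates, array weights, thresholds, each mouse left out, and a replicate block.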

Additional observations from a re-analysis of the deposited data

Results flagged for a closer look

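Within groups of 5 or 6 mice, 8 of 36 member groups searched held a mouse whose gap to its nearest neighbour was large for the range of the group (Dixon's criterion, which chance alone meets in about 1 of 20 groups). In experiment 1 they were Junb in line 20b mouse 6 (8.16, with the next at 7.82), Junb in wild-type mouse 2 (6.81, the next at 7.36), Ier2 in wild-type mouse 1 (9.82, the next at 9.13), and Myc (9.03, the next at 7.23) and Ccn1 (13.62, the next at 12.94) in line 41 mouse 3. In Mbnl1-null mice they were Jun in mouse 3 (12.36, the next at 11.92), Egr1 in mouse 2 (9.65, the next at 8.52) and Ier2 in mouse 4 (6.47, the next at 6.79).

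In 2 genes the mean differences of mutants had opposite signs, with every mouse of a mutant on the same side of its wild-type mean. Every line 20b mouse and every line 41 mouse lay above the wild-type mean in Fos (differences 2.07 and 1.19), and every Clcn1-null mouse lay below its own (-1.45). Every Clcn1-null mouse lay above the wild-type mean in Ier2 (0.23), and every Mbnl1-null mouse lay below its own (-0.35). Only the Fos difference of line 20b was called, so an opposite direction was not shown for either gene. Without BALB mouse 2 the Fos difference of Clcn1-null mice was -0.57. In Ier2 the Mbnl1-null mice, at 6.47 to 6.90, lay inside the wild-type range of 6.45 to 7.79. These differences between mutants were not tested, since strain, age and scale differ between the experiments.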

How the results depend on the processing

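Of 1065 member values recomputed under alternatives (38 results), 1032 kept their side of the threshold, 18 lost a call, 15 gained one and 0 reversed while called. In 35 values the sign changed while the gene was not called. For line 20b the number of members called was 4 after a median shift, 1 at an adjusted p under 0.01 and 1 with a 2-fold minimum, against 2. It was 3, with Ier3 added, under the log2 7 filter, quantile normalisation and array weights. For line 41 it was 0 with no filter, with a replicate block, at 0.01, with the 2-fold minimum and with only the 2 groups compared, against 1. For Clcn1-null mice array weights gave 3 against 0 (Jun, Ier2 and Ier3). For Mbnl1-null mice it was 0 with no filter, at 0.01 and with the 2-fold minimum, and 2 with array weights, against 1. Leaving out 1 mouse gave 2 to 3 for line 20b, 0 to 2 for line 41, 0 to 2 for Mbnl1-null and 0 for the others. Without wild-type mouse 1 and line 41 mouse 3 together, chosen after seeing the data, the counts stayed at 2 and 1. The replicate block gave 3 for line 20b, 0 between the lines and for Clcn1-null, and 1 for Mbnl1-null. Same-numbered mice did not deviate together throughout (r from -0.158 to 0.402), so numbers were not taken as pairs. In the Mbnl1-null comparison every r was positive (0.0207 to 0.402), and the labels do not say whether same-numbered mice were handled together. Scaling moved the share of higher calls among all genes from 46% to 56% (quantile, line 20b) and from 60.2% to 71.7% (median shift, between the lines). The causes were not tested. Groups of 3 limit the precision of experiment 2.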
